A study of Mus musculus with 32 samples.

Results

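The replication-dependent core histone genes encode the 4 proteins around which nucleosomal DNA is wrapped. The genes described here are the entries of the count table that belong to protein-coding mouse genes whose current symbol starts with H2ac, H2bc, H3c or H4c followed by a number. Of 37441 gene entries kept, 57 met that rule: 17 H2A, 16 H2B, 12 H3 and 12 H4 genes. The symbol rule uses no measured value. All 57 passed the filter on low counts and were tested among 19003 genes.

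Core histone proteins are made in large amounts in S phase, when new DNA has to be packaged. Unlike other mRNAs, those of this class normally end in a short hairpin and carry no poly(A) tail. The hairpin is bound by the stem-loop binding protein Slbp, which acts in 3′ end processing, translation and stability of the message. A growing oocyte stores histone mRNA and protein that are later used for the chromatin of the early embryo.

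RNA was measured by sequencing in oocytes of female B6, D2 and B6xD2 F1 mice from a commercial supplier, used at 8 to 12 weeks of age. Fully grown oocytes still arrested in the first meiotic prophase, with an intact nucleus called the germinal vesicle (GV), were collected in medium with the phosphodiesterase inhibitor IBMX, which keeps that nucleus intact. Mature oocytes were arrested at the second meiotic metaphase (MII). One library came from 9 to 20 oocytes of 1 mother, freed of the zona pellucida with acidified Tyrode's buffer, so a library is 1 animal and the oocytes in it are pooled. The 6 groups were B6 GV (5 libraries), F1 GV (6), D2 GV (5), B6 MII (6), F1 MII (5) and D2 MII (5). The labels give a batch 1 and a batch 2, sequenced on different instruments, and every group has 2 or 3 libraries in each batch. The titles of the batch 2 libraries carry 2 numeric prefixes whose meaning the labels do not give: all 5 B6 libraries of batch 2 have 1 of them, D2 is split evenly at each stage, and F1 has the other except for 1 GV library, so in that batch strain and prefix are partly confounded. F1 stands below for B6xD2 F1.

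The 32 libraries held 18696957 to 39688961 counted reads (median 28111141). Levels are counts-per-million values (CPM) on library sizes scaled by the trimmed mean of M values, and changes are log2 differences with a standard error (SE) from edgeR's quasi-likelihood test on all genes with a batch term. "Adjusted p" is the Benjamini-Hochberg value over the 19003 genes, and a gene is called higher or lower where it is under 0.05. Oocyte markers were abundant in both stages: Gdf9, an oocyte growth factor, lay between 2331 and 4539 CPM. The GV libraries also held RNA of granulosa cells, the somatic cells around the oocyte. The summed level of 25 granulosa and cumulus markers was 723.9 to 2212 CPM in GV batch 1, 353.0 to 3980 CPM in GV batch 2 and 331.4 to 591.7 CPM in MII. Foxl2, a defining granulosa transcription factor, was at 0 in all 16 MII libraries. In such bulk samples, fewer cells of a type and less RNA per cell cannot be told apart.

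The 57 genes lie in dense clusters on 2 chromosomes (GRCm38, GENCODE M21). On chromosome 13, 16 are at the cluster holding H2ac23 (chr13:21810367-21810918), 5 at the one holding H2bc12 (chr13:22035821-22036320), 24 at the one holding H3c8 (chr13:23535418-23535909), and H2ac1 and H2bc1 form a pair apart. The other 10, H2bc21 among them, are on chromosome 3. The 24-gene cluster gave 41.1% of the members' summed mean CPM, the 16-gene cluster 23.98%, chromosome 3 gave 15.7%, the 5-gene cluster 10.0% and the lone pair 9.24%.

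The hairpin is the signature of this mRNA class, so it is shown for members of each family. A 16-base element was searched that starts with GG and has a 6-base stem, 4 loop bases and the exact reverse complement of the stem, on the transcript strand, in the first 100 bases after the stop codon. It could be searched in the 42 members with at least 50 annotated bases there, and was found in 39: 10 of 10 H2A, 9 of 12 H2B, 9 of 9 H3 and 11 of 11 H4 genes. Among 19897 other genes with 100 annotated bases it was found in 65 (0.327%). The form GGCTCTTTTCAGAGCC stood in 21 members of the H2A, H2B and H3 families, and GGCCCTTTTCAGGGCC in 6 members, all H4. The sequences below are GENCODE M21 transcript sequence (GRCm38), with the hairpin in capitals and 5 bases on either side.
H2ac19 (chr3:96239779-96239804, minus strand): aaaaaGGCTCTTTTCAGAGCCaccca
H2ac4 (chr13:23751567-23751592, plus strand): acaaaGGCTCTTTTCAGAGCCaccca
H2bc12 (chr13:22036295-22036320, plus strand): ccaaaGGCTCTTTTAAGAGCCactaa
H3c15 (chr3:96238480-96238505, minus strand): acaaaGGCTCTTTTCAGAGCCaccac
H3c8 (chr13:23535884-23535909, plus strand): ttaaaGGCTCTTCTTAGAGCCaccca
H4c8 (chr13:23531453-23531478, plus strand): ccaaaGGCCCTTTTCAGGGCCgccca
H4c11 (chr13:21735432-21735457, plus strand): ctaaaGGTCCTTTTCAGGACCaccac
The 3 searched members without a match were H2bc4, H2bc21 and H2bc23, whose annotated models run 742, 2192 and 823 bases past the stop codon. No match says only that these letters are not in the searched window. The other 15 members, H2ac1 and H2bc1 among them, could not be searched because their models stop at or near the stop codon.

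Members of a family are near copies of each other, which bears on every count. Over pairs of equal coding length, the median identity was 97.4% for H2A, 97.6% for H2B, 97.3% for H3 and 94.8% for H4. A read here is 50 bases long. Of the 50-base windows of a member's coding sequence, a median of 80.2% also stand in another gene, and for 11 members all of them do. Whether such reads were dropped, split or given to 1 gene is not given in the sources used here, so values of single members other than the few distinct ones are uncertain. Only 5 members share under 25%: H2bc18 and H2bc21 (0%), H2ac1 (2.4%), H4c14 (6.2%) and H2ac21 (24.3%). The first 60 coding bases of 6 H2A genes show the range, with bases that differ from H2ac19 in capitals (GENCODE M21, GRCm38).
H2ac19 (chr3:96240191-96240250, minus strand): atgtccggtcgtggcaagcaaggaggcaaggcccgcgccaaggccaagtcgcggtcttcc
H2ac18 (chr3:96245581-96245640, plus strand): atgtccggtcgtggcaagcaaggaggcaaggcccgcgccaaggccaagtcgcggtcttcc
H2ac23 (chr13:21810467-21810526, plus strand): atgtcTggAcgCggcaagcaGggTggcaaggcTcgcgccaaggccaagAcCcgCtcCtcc
H2ac12 (chr13:22035493-22035552, minus strand): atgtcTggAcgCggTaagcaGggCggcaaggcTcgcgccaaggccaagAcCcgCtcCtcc
H2ac15 (chr13:21753768-21753827, minus strand): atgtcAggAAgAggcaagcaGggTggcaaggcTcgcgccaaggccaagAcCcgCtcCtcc
H2ac1 (chr13:23934462-23934521, plus strand): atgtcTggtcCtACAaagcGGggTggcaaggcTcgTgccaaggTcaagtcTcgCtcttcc
H2ac18 and H2ac19 are identical over this stretch, H2ac23 differs at 10 bases, H2ac12 and H2ac15 at 11 each, and H2ac1 at 13. The H2ac18 and H2ac19 copies had 27569 and 31565 reads over the 32 libraries, with ratios of 0.71 to 1.07 in single libraries. That spread was near counting noise (chi-square per degree of freedom 1.38, where 1 is counting noise alone). H3c14 and H3c15, with 43350 and 50854 reads, had ratios of 0.765 to 1.13 and a value of 1.07. H2ac23 with H2ac24 and H4c17 with H4c18, which also share all coding windows with each other, varied more, with values of 3.228 and 7.401. A spread near counting noise was thus not general among such copies.

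H2ac1 had the highest mean level of all members, 101.7 CPM over the 32 libraries, 7.17% of the members' sum. It led in batch 1, with a mean of 159.5 CPM against 101.2 CPM for H2bc4, while in batch 2 H2bc4 led with 42.7 CPM against 27.3 CPM for H2ac1. Per kilobase of coding sequence it reached 262.7 CPM, against family medians of 40.2 for H2A, 78.2 for H2B, 45.6 for H3 and 66.1 for H4. It encodes the H2A form first described in testis, a germ-line histone also made in oocytes. Next per kilobase came H2bc4, then H4c3 (160.3), H2bc12 (139.9), H3c15 (132.7), H2bc23 (119.2), H3c14 (113.2), H4c4 (109.5), H2bc11 (96.5), H2bc8 (95.8), H2bc22 (91.3), H2bc13 (88.8), H2ac19 (86.4) and H3c13 (86.3). At the other end stood H2ac21 (14.3), H4c14 (10.2), H2bc18 (2.57) and H2bc21 (1.498). Counts are per gene and were divided here by coding length only. Annotated exon length differs more, with 390 bases in H2ac1, 1156 in H2bc4 and 2620 in H2bc21. The order per kilobase is therefore not a like-for-like density. The 12 members with the highest mean CPM gave 42.4% of the sum.

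The H2ac1 and H2bc1 genes, a germ-line pair, face away from each other with 280 bases between their annotated starts. The H2ac1 promoter is shown because H2ac1 had the highest mean level and 1 window covers most of the shared stretch (RefSeq, GRCm38.p6, 250 bases before to 50 after the start). Capitals mark, on either strand, the octamer ATTTGCAT to which Pou2f1 binds, the CCAAT box, and TATAAA.
H2ac1 promoter (chr13:23934187-23934486, plus strand): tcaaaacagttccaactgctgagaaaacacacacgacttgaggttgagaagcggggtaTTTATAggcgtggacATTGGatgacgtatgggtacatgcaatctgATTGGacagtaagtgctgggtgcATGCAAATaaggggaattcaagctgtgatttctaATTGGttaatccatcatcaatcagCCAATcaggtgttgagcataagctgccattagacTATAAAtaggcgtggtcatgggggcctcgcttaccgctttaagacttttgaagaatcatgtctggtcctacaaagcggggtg
The window holds 1 octamer, 4 CCAAT boxes and 2 TATAAA matches, with no overlap between motifs. Promoters were found for 52 members. The octamer was in 6 of 17 H2A and 7 of 14 H2B promoters and in none of 10 H3 or 11 H4 promoters, against 1.74% of 32851 promoters of this length. CCAAT was in all 17 H2A, all 14 H2B and all 10 H3 promoters but in 3 of 11 H4 promoters, against 37.4%. TATAAA was in 11 H2A, 7 H2B, 4 H3 and 8 H4 promoters, against 13.6%. These matches are descriptions of letters, not of binding.

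The members' summed level was far lower in batch 2 than in batch 1. In GV, the sum over all 57 was 2262 ± 401 CPM (SD, n = 9; 1696 to 2725) in batch 1 and 576 ± 173 CPM (n = 7; 361.2 to 838.7) in batch 2. In MII it was 1920 ± 672 CPM (n = 9; 988.4 to 2904) in batch 1 and 533 ± 64.3 CPM (n = 7; 434.8 to 644.5) in batch 2. The batches did not overlap at either stage. Of the 57 members, 55 were lower in batch 2 and 0 higher by edgeR (all genes tested: 23.6% lower and 18.8% higher), with a median log2 difference of -1.97, against -0.11 over all genes tested. The medians by family were -2.41 for H2A, -2.05 for H3, -1.85 for H2B and -1.33 for H4. H3c15 stood lowest (-2.97), and the pair not called were H2bc21 (-0.80, adjusted p = 0.378) and H4c14 (-0.85, adjusted p = 0.0672). H3-3a and H3-3b, replacement H3 genes outside the rule whose mRNAs are polyadenylated, also had lower levels in batch 2: in GV, H3-3b had a median of 273.8 CPM in batch 1 and 111.5 CPM in batch 2. The labels give the batches different instruments, and the instrument and any other difference between the batches cannot be told apart. Because the 6 groups are split over both batches, each comparison below was made with batch as a term, and values are given within batches.

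**Figure D1:**
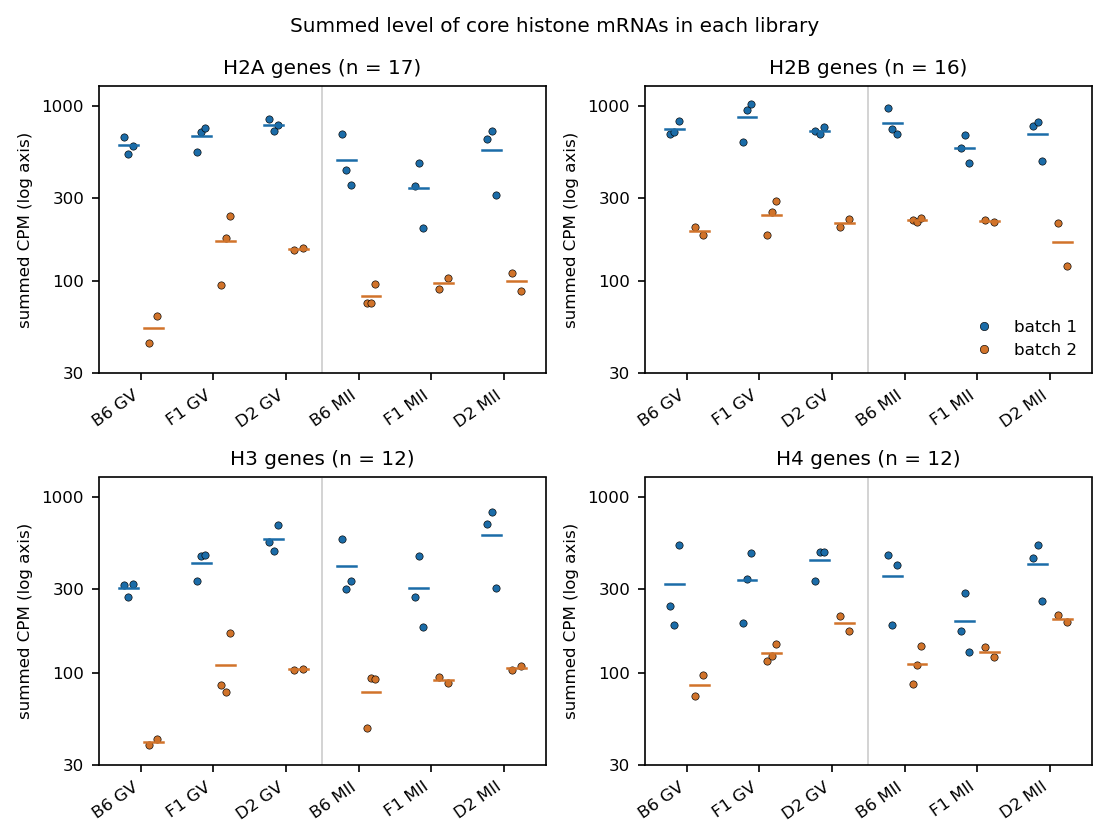
Summed CPM (log axis) of the 17 H2A, 16 H2B, 12 H3 and 12 H4 genes in each of the 32 libraries, by group, with batch 1 in blue and batch 2 in orange; each point is a library and each bar the mean of a group within a batch. Within each group batch 1 lies above batch 2 in every family, except for H4 in F1 MII, where 1 batch 1 library (132.0 CPM) lies below 1 batch 2 library (140.7 CPM).

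From GV to MII most H2A genes fell, while no H3 or H4 gene was called. On the mean of the 3 strains, edgeR called 16 of 57 members lower and 0 higher (all genes tested: 29% lower and 22.9% higher), a share of lower calls close to that of all genes. By family, 13 of 17 H2A and 3 of 16 H2B genes were lower, and 0 of 12 H3 and 0 of 12 H4. At an unadjusted p under 0.05 the lower counts were 13, 4, 0 and 1, and 0 members were higher. DESeq2 called 13 H2A, 5 H2B, 0 H3 and 1 H4 genes lower and 0 higher. The median log2 change was -0.70 for H2A, -0.14 for H2B, 0.01 for H3 and -0.08 for H4, and -0.15 over the 57, against -0.06 over all genes tested.

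H2ac15, an H2A gene at the 16-gene cluster, had in GV a lowest, median and highest level of 13.5, 19.4 and 35.9 CPM in batch 1 and 0.993, 4.27 and 5.76 CPM in batch 2. In MII it had 4.70, 9.34 and 16.3 CPM in batch 1 and 1.46, 1.82 and 2.38 CPM in batch 2. The medians were lower in MII in both batches, and the ranges overlapped in both. It changed by -1.03 (SE 0.18, adjusted p = 1.1e-05).

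H2ac23, in which every coding window also stands in another gene, had in GV 22.4, 31.0 and 39.4 CPM in batch 1 and 2.13, 8.53 and 11.7 CPM in batch 2. MII levels were 7.49, 15.0 and 25.8 CPM in batch 1 and 2.85, 4.20 and 4.44 CPM in batch 2. Again the ranges overlapped and the medians were lower in MII, and it changed by -0.84 (SE 0.16, adjusted p = 3.71e-05). The other 7 named H2A genes lay close to it: H2ac4 changed by -0.86, H2ac13 by -0.85, H2ac10 by -0.80, H2ac7 by -0.78, H2ac24 by -0.73, H2ac8 by -0.71 and H2ac12 by -0.69, with adjusted p from 4.08e-05 to 0.000937. Since these genes share most of their windows, they are not independent measurements of 1 change.

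The 13 H2A calls did not hold in every subset. In batch 1 alone, 14 H2A genes were lower with a median of -0.82. Batch 2 alone called 0 H2A genes, with a median of -0.49, and 1 member in all. Over all genes tested, 9028 were called in batch 1 alone and 4503 in batch 2 alone. The 2 B6 GV libraries of batch 2 had the lowest H2A sums of all, 44.9 and 63.9 CPM, below the 75.4, 75.5 and 97.0 CPM of B6 MII in that batch. H2A genes gave a median share of 30.2% of the members' sum in GV batch 1 against 24.9% in MII batch 1, and of 22.6% against 17.3% in batch 2. GV and MII differ at the same time in granulosa RNA: 16 of 23 granulosa markers tested were lower in MII and 4 higher, and of 16 stroma markers 10 were lower and 2 higher. Of 20 proliferation genes, 3 were lower and 9 higher. With the mean log2 CPM of the granulosa markers as a covariate, 0 of 57 members were called and the H2A median was -0.34. Calls over all genes tested were 2775 in that fit, against 9862 without the covariate. Without the 3 GV libraries whose granulosa sum was as low as in MII, 17 members were lower, 14 of them H2A. The part of granulosa RNA in the H2A change was not tested beyond these values.

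**Figure D2:**
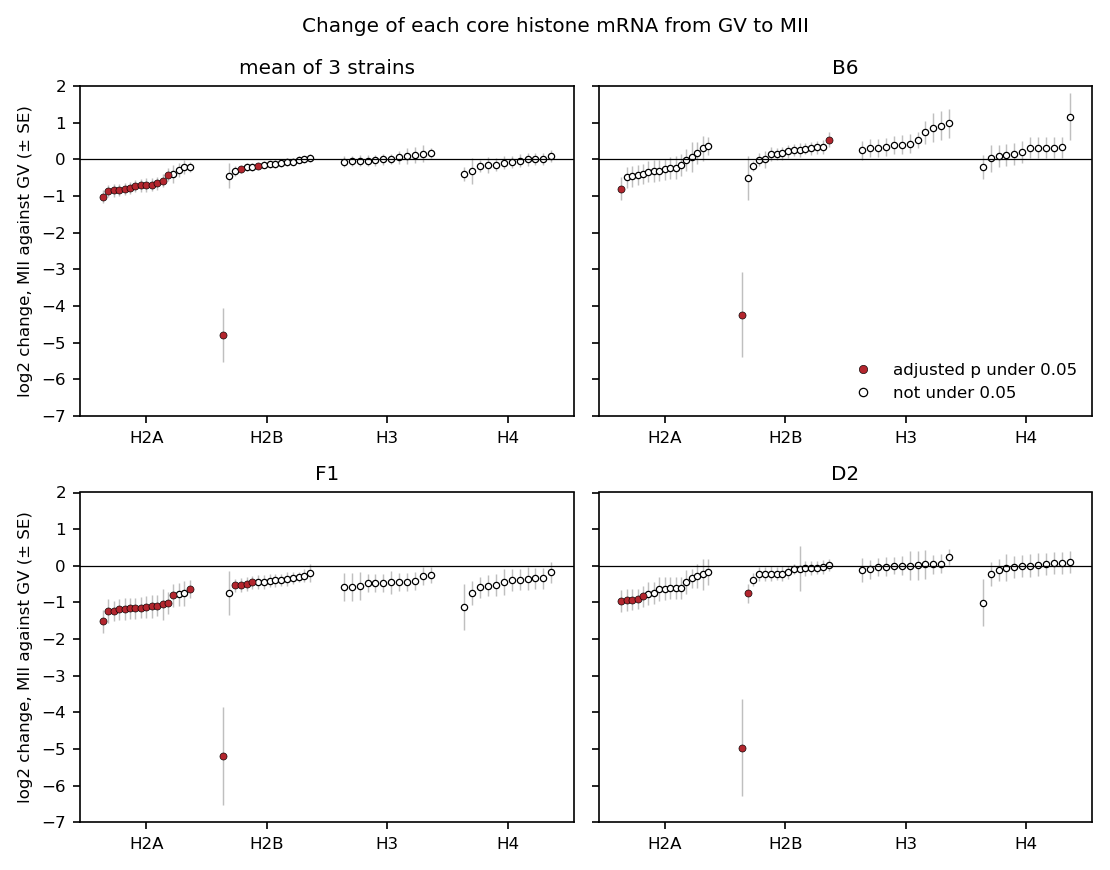
log2 change from GV to MII (y axis, with SE) of each member, by family, for the mean of the 3 strains and for B6, F1 and D2; filled points have an adjusted p under 0.05. H2A genes lie lowest, with medians of -0.70 (mean of strains), -0.27 (B6), -1.12 (F1) and -0.63 (D2), while 0 H3 genes were called in any of the 4 comparisons.

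The calls differed in number between the strains, but whether the change in F1 differed from that in B6 or D2 was not tested. In F1, 20 members were lower and 0 higher (all genes tested: 18% lower, 14.9% higher), of which 15 were H2A and 5 H2B, and the median over the 57 was -0.51. In D2, 7 were lower and 0 higher (15.6% lower, 13.1% higher): the H2A genes H2ac4, H2ac7, H2ac10, H2ac13 and H2ac23, with H2bc1 and H2bc21, and the median was -0.11. In B6, H2ac15 (-0.80, SE 0.30, adjusted p = 0.0471) and H2bc21 were lower and H2bc12 was higher (0.54, SE 0.20, adjusted p = 0.039; all genes tested: 16.4% lower, 10.3% higher), and the median was 0.20. All 12 H3 estimates in B6 were above 0, with an H3 median of 0.42, and at an unadjusted p under 0.05 6 members were higher there (5 H3 and 1 H2B) and 2 lower, while DESeq2 called 2 higher (1 of them H3) and 2 lower. At an unadjusted p under 0.05 no member was higher in F1 or D2, and by DESeq2 none was either. The difference between the stage changes of D2 and B6 was tested itself: 0 of 57 members were called in either direction (all genes tested: 0.0474% higher and 0.0579% lower), 5 were lower at an unadjusted p under 0.05, and DESeq2 called 0. The median of that difference was -0.38 over the members and 0.03 over all genes tested. Without the B6 GV library of batch 2 replicate 2, 0 members were called in B6. Without B6 GV batch 1 replicate 5, and likewise without F1 GV batch 2 replicate 3, 6 members were higher and 1 lower in B6, and without B6 MII batch 2 replicate 3 the count was 1, lower. Batch 2 alone gave 2 higher B6 calls, both H3, and 0 lower, with an H2A median of 0.30, the opposite sign to that of both batches. Without D2 MII batch 1 replicate 4 the D2 count was 1. In F1 the count fell to 13 without either F1 GV batch 2 replicate 3, F1 GV batch 1 replicate 3, F1 MII batch 1 replicate 3 or F1 MII batch 1 replicate 5.

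H2bc21 changed most of all members and is also the member with the lowest level. It lies on chromosome 3, shares no coding window with another gene, and its first 60 coding bases differ from those of H2bc12 at 12 positions, in capitals here (GENCODE M21, GRCm38).
H2bc12 (chr13:22035887-22035946, plus strand): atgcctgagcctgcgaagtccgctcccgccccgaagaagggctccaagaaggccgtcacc
H2bc21 (chr3:96221166-96221225, plus strand): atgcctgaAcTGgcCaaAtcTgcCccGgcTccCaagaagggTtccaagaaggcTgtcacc
It had 489 reads in the 16 GV libraries, of which 14 held at least 1, and 19 reads in the 16 MII libraries, of which 8 held at least 1. Pooled over the libraries of a stage this is 1.06 CPM in GV and 0.0423 CPM in MII. The lowest, median and highest levels were 0.284, 0.973 and 3.89 CPM in GV batch 1 and 0, 0.399 and 3.04 CPM in GV batch 2, while no MII library exceeded 0.130 CPM. The GV and MII ranges were apart in batch 1 and overlapped in batch 2. The change was -4.80 (SE 0.74, adjusted p = 1.61e-06). H2bc21 passed the filter on low counts only through its GV libraries, so its lower calls in MII are not independent of that filter.
The 3 GV libraries of low granulosa level had 0, 0.0530 and 0 CPM of H2bc21, like the MII libraries. Its highest values, 3.89 and 3.04 CPM, were in the F1 GV batch 1 and B6 GV batch 2 libraries with granulosa sums of 2212 and 3980 CPM. The order did not hold throughout: the D2 GV batch 2 replicate 1 library, with a granulosa sum of 3910 CPM, had 1.87 CPM, D2 GV batch 1 replicate 3, with 1845 CPM, had 0.284 CPM, and F1 GV batch 2 replicate 3, with 606.7 CPM, had 1.02 CPM. With the granulosa level as a covariate the change was -0.25 (adjusted p = 0.927). That fit gave 2775 calls over all genes tested, against 9862 without the covariate. No MII library had a granulosa sum above 591.7 CPM, so stage and granulosa level cannot be fully told apart in it. The part of granulosa RNA in the H2bc21 change was not tested beyond these values.

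**Figure D3:**
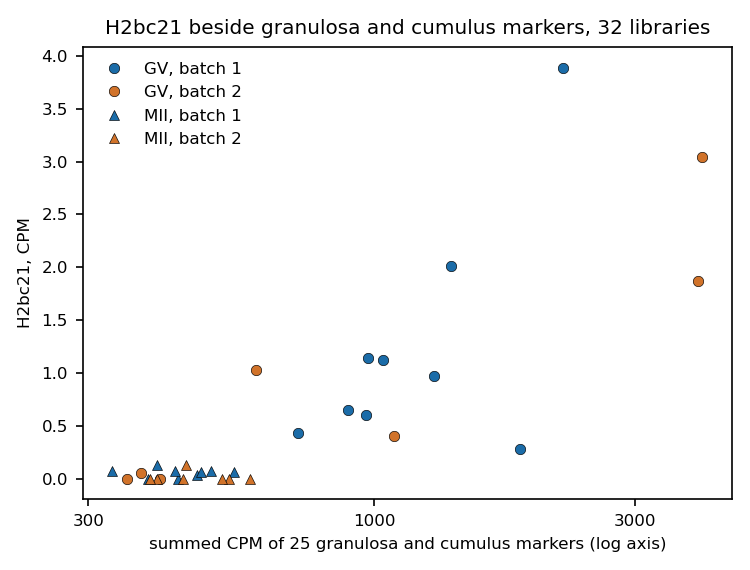
H2bc21 level in CPM (y axis) against the summed CPM of 25 granulosa and cumulus markers (x axis, log) in the 32 libraries, circles for GV and triangles for MII, blue for batch 1 and orange for batch 2. All MII libraries and the 3 GV libraries with granulosa sums of 353.0 to 405.4 CPM lie at or below 0.130 CPM.

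The H2B genes H2bc4 and H2bc14 were also called lower on the mean of strains. H2bc4, the most abundant H2B gene, whose annotated gene spans 8282 bp, had in GV 83.9, 106.5 and 133.8 CPM in batch 1 and 30.5, 45.5 and 63.5 CPM in batch 2. In MII it had 75.02, 98.8 and 126.5 CPM in batch 1 and 22.4, 42.2 and 45.0 CPM in batch 2. The ranges overlapped widely, and the change was -0.19 (SE 0.08, adjusted p = 0.0442). That call held in 19 of 43 alternatives, over which the value ran from -0.32 to -0.15 and the adjusted p from 0.00839 to 0.584. H2bc14 changed by -0.28 (SE 0.11, adjusted p = 0.0266).

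The germ-line pair did not pass the test on the mean of strains. H2ac1 had in GV 120.8, 175.8 and 237.4 CPM in batch 1 and 8.98, 28.2 and 50.8 CPM in batch 2. The MII levels were 70.0, 121.7 and 226.0 CPM in batch 1 and 19.4, 25.2 and 30.0 CPM in batch 2. Its ranges overlapped in both batches, with a log2 value of -0.20 (SE 0.14, adjusted p = 0.237). Of the single strains, F1 gave a call, at -0.64 (SE 0.24, adjusted p = 0.0423), and whether the change in F1 differed from that in the other strains was not tested. The stage changes of D2 and B6 differed by -0.72 (SE 0.35, adjusted p = 0.52). H2bc1, the H2B partner, had -0.31 (SE 0.14, adjusted p = 0.0616) on the mean of strains and was lower in D2 (-0.75, SE 0.25, adjusted p = 0.0232). The reads of H2ac1 were 0.805 to 6.27 times those of H2bc1 in the 32 libraries.

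**Figure D4:**
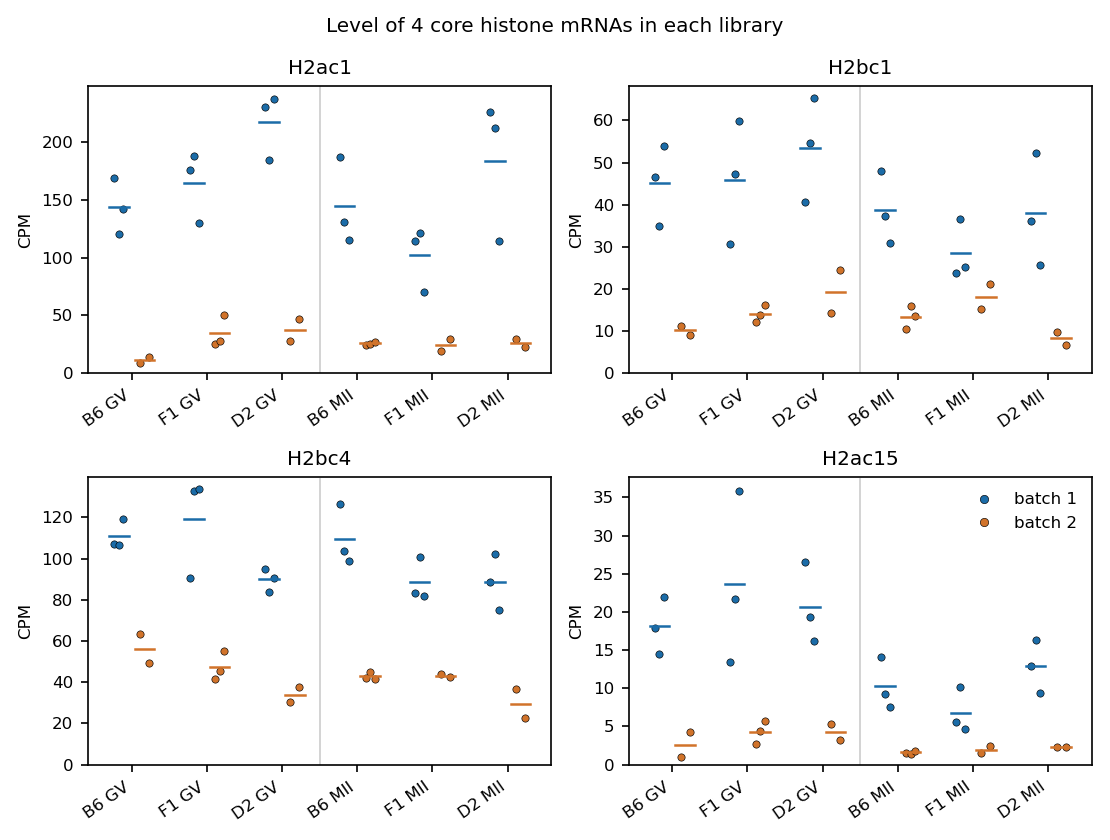
CPM of H2ac1, H2bc1, H2bc4 and H2ac15 in each library by group (y axes from 0), batch 1 in blue and batch 2 in orange; points are libraries and bars are means within a batch. H2ac1 reaches 237.4 CPM in D2 GV of batch 1 and 8.98 CPM in B6 GV of batch 2, and H2ac15 is lower in MII in the medians of both batches.

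D2 GV oocytes had more H3 mRNA than B6 GV oocytes. The summed H3 level was 271.6, 318.5 and 321.0 CPM in the B6 libraries of batch 1 and 496.1, 557.7 and 697.4 CPM in the D2 libraries. In batch 2 it was 39.0 and 42.2 CPM in B6 and 103.8 and 105.9 CPM in D2. The strains did not overlap in either batch. All 12 H3 genes were called higher in D2, with log2 differences of 0.88 to 1.28 and a median of 1.04. These genes share 66.9% to 100% of their coding windows with other genes, so they are not independent measurements of 1 difference. In all, 14 of 57 members were higher and 1 lower (all genes tested: 9.16% higher and 11.3% lower), and the median over the 57 was 0.69, against -0.02 over all genes tested. The other pair called higher were H2ac1 and H2ac10, and the lower one was H2bc4. No H4 gene was called, though 9 of 12 were higher at an unadjusted p under 0.05, the H4 median was 0.70, and DESeq2 called 4. The H2A median was 0.70 and that of H2B 0.15, and 10 of 17 H2A genes were higher at an unadjusted p under 0.05. The summed H2A level did not overlap between the strains either. In batch 1 it was 531.4 to 668.7 CPM in B6 and 724.8 to 844.6 CPM in D2. In batch 2 it was 44.9 and 63.9 CPM in B6 and 151.9 and 155.7 CPM in D2. The H2B and H4 sums overlapped in batch 1.

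H3c6 led the list by adjusted p. In batch 1 it had 14.6, 11.7 and 12.4 CPM in B6 GV and 26.0, 24.1 and 40.4 CPM in D2 GV. In batch 2 it had 3.97 and 4.52 CPM in B6 GV and 10.3 and 7.42 CPM in D2 GV. Every D2 library was above every B6 library of its batch, and the difference was 1.16 (SE 0.26, adjusted p = 0.00112).

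H3c8 had 26.2, 16.9 and 20.7 CPM in B6 GV and 50.1, 34.4 and 52.0 CPM in D2 GV of batch 1. In batch 2 it had 3.69 and 4.19 CPM in B6 and 8.67 and 7.72 CPM in D2. These did not overlap either, and the difference was 1.08 (SE 0.26, adjusted p = 0.00222). Of the other named H3 genes, H3c4 differed by 1.27, H3c10 by 1.00, H3c1 by 0.96, H3c2 by 0.95, H3c11 by 0.94, H3c3 by 0.90 and H3c7 by 0.88, with adjusted p from 0.00432 to 0.00881. The chromosome 3 copies H3c13, H3c14 and H3c15 differed by 1.28, 1.21 and 1.28 with larger SEs of 0.40, 0.40 and 0.41. The first 60 coding bases of 5 H3 genes from both chromosomes are shown to let the copies be compared, with differences from H3c15 in capitals (GENCODE M21, GRCm38).
H3c15 (chr3:96238882-96238941, minus strand): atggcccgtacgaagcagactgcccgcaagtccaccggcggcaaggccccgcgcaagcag
H3c14 (chr3:96246886-96246945, plus strand): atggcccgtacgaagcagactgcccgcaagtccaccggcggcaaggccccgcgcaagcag
H3c8 (chr13:23535446-23535505, plus strand): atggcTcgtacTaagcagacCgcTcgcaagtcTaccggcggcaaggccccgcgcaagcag
H3c6 (chr13:23562306-23562365, minus strand): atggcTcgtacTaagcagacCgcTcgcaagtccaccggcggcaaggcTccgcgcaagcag
H3c4 (chr13:23575802-23575861, plus strand): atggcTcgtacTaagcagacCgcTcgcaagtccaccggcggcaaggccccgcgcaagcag
H3c8 and H3c6 differ from H3c15 at 5 of the 60 bases and H3c4 at 4.

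The strain difference in GV kept its direction within each batch. The H3 median was 0.99 in batch 1 alone, where 4 members were called, and 1.10 in batch 2 alone, where 15 were called higher, 4 of them H3. With the granulosa level as a covariate all 12 H3 genes were still higher, with a median of 1.03. Without the 3 GV libraries of low granulosa level 9 members were called, all of them H3, with an H3 median of 1.02. Without the batch term the H3 median was 0.98 and 0 members were called, and DESeq2 called 24 members. Leaving out B6 GV batch 1 replicate 5 raised the count to 30, leaving out B6 MII batch 1 replicate 2 raised it to 25, and leaving out B6 MII batch 1 replicate 3 or D2 GV batch 1 replicate 3 raised it to 24.

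H2ac1 had 168.7, 120.8 and 142.4 CPM in B6 GV and 230.5, 185.1 and 237.4 CPM in D2 GV of batch 1. In batch 2 it had 8.98 and 14.3 CPM in B6 and 28.2 and 46.8 CPM in D2. The strains were apart in both batches, and the difference was 0.93 (SE 0.25, adjusted p = 0.0068). Of the members called here, this is the one with few shared windows (2.4%).

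H2bc4 went the other way. In batch 1 it had 107.3, 106.5 and 119.1 CPM in B6 GV and 95.2, 83.9 and 90.8 CPM in D2 GV. In batch 2 it had 63.5 and 49.3 CPM in B6 and 30.5 and 37.6 CPM in D2. Every D2 library was below every B6 library of its batch, and the difference was -0.48 (SE 0.14, adjusted p = 0.0124). The call held in 29 of 42 alternatives, with adjusted p up to 0.659. Of the coding windows of H2bc4, 97.6% also stand in another gene.

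In MII oocytes 3 members were higher in D2 than in B6 and 1 lower (all genes tested: 13.4% higher and 13% lower). The 3 higher ones were all H3: H3c6 (0.83), H3c8 (0.76, SE 0.25, adjusted p = 0.0204) and H3c7 (0.59, SE 0.22, adjusted p = 0.0431). The lower one was again H2bc4, at -0.38, called in 30 of 42 alternatives. The H3 sum in batch 1 was 581.4, 302.8 and 332.7 CPM in B6 MII and 702.2, 831.2 and 303.8 CPM in D2 MII. In batch 2 it was 48.5, 93.9 and 92.3 CPM in B6 and 103.9 and 109.6 CPM in D2. The strains overlapped in batch 1, through D2 MII batch 1 replicate 4, and were apart in batch 2. The median over the 57 was 0.34 and that of H3 0.58, against -0.02 over all genes tested. Batch 1 alone called 0 members, batch 2 alone 1, the fit with the granulosa covariate 2, and the count without 1 library ran from 1 (without D2 MII batch 2 replicate 2) through 2 (without B6 MII batch 2 replicate 1 or D2 MII batch 1 replicate 2) to 9 (without B6 MII batch 1 replicate 1 or D2 MII batch 1 replicate 4).

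**Figure D5:**
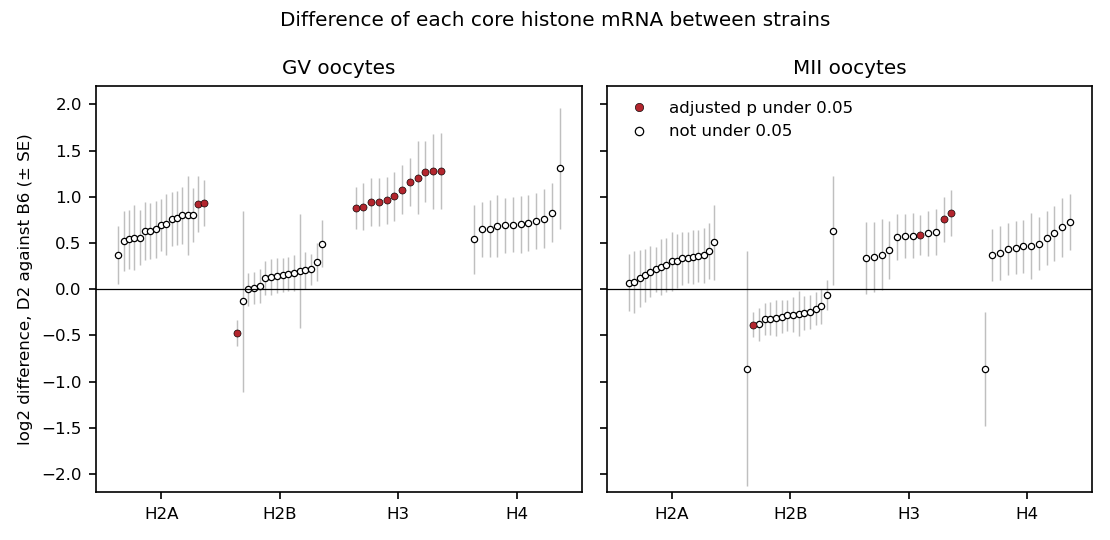
log2 difference of D2 against B6 (y axis, with SE) for each member by family, in GV on the left and in MII on the right; filled points have an adjusted p under 0.05. In GV all 12 H3 genes are filled, at 0.88 to 1.28, and in MII 3 of them are.

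The F1 oocytes were not called different from the mean of their parent strains, taken on the log scale and not over CPM. Against that mid-parent value, 0 of 57 members were called in GV (all genes tested: 0.831% higher and 0.0474% lower) and 0 in MII (1.01% higher and 0.147% lower). At an unadjusted p under 0.05, 3 members were higher in GV and 10 lower in MII, 8 of those H4 genes, and DESeq2 called 0 at both stages. The medians were 0.29 in GV and -0.34 in MII, against 0.01 at both stages over all genes tested. These medians differed between the batches: in GV it was -0.01 in batch 1 alone and 0.43 in batch 2 alone (-0.03 without a batch term), and in MII -0.65 in batch 1 alone and 0.03 in batch 2 alone. In MII 55 of 57 estimates were below 0, the lowest at -0.95.

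Against single parents, which share the F1 libraries with the mid-parent comparison, few members passed at an adjusted p under 0.05. In GV, H3c4 was higher in F1 than in B6 (1.05, SE 0.32, adjusted p = 0.0462), the 1 call of 57 (all genes tested: 2.83% higher and 2.67% lower). Its level was 17.8, 14.4 and 14.3 CPM in B6 GV and 16.8, 25.4 and 28.4 CPM in F1 GV of batch 1, which overlap, and 1.18 and 1.11 CPM in B6 and 2.86, 2.89 and 7.51 CPM in F1 of batch 2, which do not. Against B6 in GV, 32 members were higher at an unadjusted p under 0.05 and 0 lower: 14 H2A, 6 H2B, 12 H3 and 0 H4 genes. Against D2 in GV 0 members were called (4.07% higher and 1.97% lower), and 1 was higher at an unadjusted p under 0.05. In MII, 0 members differed from B6 (4.66% higher and 2.7% lower), and 3 were lower at an unadjusted p under 0.05. Against D2, 3 were lower in MII and 0 higher (4.92% higher and 3.2% lower): H4c4 (-1.17, SE 0.34, adjusted p = 0.0285), H3c7 (-0.78, SE 0.23, adjusted p = 0.0295) and H3c8 (-0.84, SE 0.26, adjusted p = 0.0375). At an unadjusted p under 0.05, 20 members were lower in F1 MII than in D2 MII and 0 higher: 11 H4, 8 H3 and 1 H2A. DESeq2 was not run on these single-parent comparisons.

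Of 40 genes for histone gene transcription, 3′ end processing and decay of histone mRNA, 19 were higher in MII and 9 lower on the mean of strains, with a median of 0.22 (all genes tested: 22.9% higher, 29% lower, median -0.06). Slbp, the hairpin-binding protein, had in GV a lowest, median and highest level of 620.8, 744.3 and 919.9 CPM in batch 1 and 466.8, 571.9 and 1014 CPM in batch 2. In MII the values were 921.4, 1251 and 1396 CPM in batch 1 and 761.0, 837.1 and 1019 CPM in batch 2. The stages were apart in batch 1 and overlapped in batch 2, and Slbp rose by 0.51 (SE 0.08, adjusted p = 8.18e-07). Npat, the coactivator of histone gene transcription, rose by 0.35 (SE 0.09, adjusted p = 0.00103). Among the others that rose were Upf1 (0.76), a helicase of histone mRNA decay, Casp8ap2 (0.57), which acts in hairpin-end cleavage, the kinase Smg1 (0.49), and Pou2f1 (0.39). The 4 that fell with the lowest adjusted p were Lsm4 (-4.75) of the decay-promoting Lsm ring, Tut4 (-4.42), a terminal uridylyltransferase, the Sm protein Snrpb (-2.75), and Lsm10 (-1.89) of the U7 particle. Over 43 alternatives the Tut4 value ran from -4.79 to -1.11, and its call held in 42. Snrpb was low throughout, with means of 4.24 CPM (batch 1) and 0.976 CPM (batch 2) in GV. In MII its means were 0.681 and 0.123 CPM.

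Of these genes, Npat differed between strains in the same direction at both stages. It was higher in D2 than in B6 by 0.53 in GV (SE 0.16, adjusted p = 0.0136) and by 0.78 in MII (SE 0.15, adjusted p = 0.000107). Slbp was not called in GV (-0.35, adjusted p = 0.061) or MII (-0.03, adjusted p = 0.899). Of the 40 genes, 7 were higher and 4 lower in D2 GV, with a median of -0.02, and 9 were higher and 4 lower in D2 MII. Over all genes tested, 9.16% were higher and 11.3% lower in D2 GV, and 13.4% higher and 13% lower in D2 MII.

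Histone chaperones, which carry histones to DNA or hold them in store, showed 20 of 32 genes higher in MII and 4 lower, with a median of 0.25 (all genes tested: 22.9% higher, 29% lower). Rbbp7 (0.52), Asf1b (0.49), Nap1l1 (0.47) and Ubn2 (0.39) rose, the first with roles in several chromatin complexes, Asf1b as a carrier of H3 with H4, Nap1l1 of H2A with H2B and Ubn2 in the complex that deposits replacement H3. The 4 that fell were Ptma (-1.68), Npm2 (-1.10), Dnajc9 (-0.70) and Set (-0.56). Npm2, the oocyte nucleoplasmin that stores H2A with H2B, had in GV 334.1, 461.4 and 728.6 CPM in batch 1 and 290.7, 417.4 and 757.7 CPM in batch 2. Its MII levels were 207.2, 294.7 and 464.6 CPM in batch 1 and 136.0, 153.1 and 179.7 CPM in batch 2, so that the stages overlapped in batch 1 and were apart in batch 2. Between strains, Ubn2 was lower in D2 than in B6 in GV (-0.47, SE 0.09, adjusted p = 0.000244) and in MII (-0.28, SE 0.09, adjusted p = 0.0191). With the granulosa covariate the value of Set was 0.02, that is, of the opposite sign.

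Of 12 variant and replacement histone genes tested, 2 were higher in MII and 7 lower, with a median of -0.55 (all genes tested: 22.9% higher, 29% lower, median -0.06). H2ax, an H2A variant phosphorylated at DNA breaks, had in GV 184.1, 268.0 and 336.3 CPM in batch 1 and 57.5, 79.0 and 110.9 CPM in batch 2. Its MII levels were 39.2, 79.4 and 186.3 CPM in batch 1 and 14.3, 18.1 and 33.5 CPM in batch 2. The stages overlapped in batch 1 and were apart in batch 2. H2ax fell by 1.59 on the log2 scale (SE 0.15, adjusted p = 1.87e-10). The H2A variants H2az2 (-1.95), Macroh2a2 (-1.52) and H2aj (-1.16) also fell. The replacement H3 genes moved in opposite directions: H3-3b rose by 0.63 (SE 0.07, adjusted p = 1.2e-08) and H3-3a fell by 0.28 (SE 0.08, adjusted p = 0.00351). Cenpa, the centromeric H3, rose by 0.43. H3-3b was also higher in D2 than in B6 in GV (0.39, SE 0.13, adjusted p = 0.0304), where H3-3a was not called (-0.15, adjusted p = 0.552).

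The 5 members that share under 25% of their coding windows allow a view free of most near-copy counting. On the mean of strains 1 of 5, H2bc21, was lower in MII, with a median of -0.40 (all genes tested: 29% lower). That member passed the filter on low counts only through its GV libraries, so the call is not independent of the filter. In GV 1 of 5, H2ac1, was higher in D2, with a median of 0.80 (all genes tested: 9.16% higher). In MII none of the 5 was called for D2 against B6 by edgeR (13.4% higher and 13% lower). No H3 gene is among the 5.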

How the data were processed

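Oocyte total RNA was amplified by SPIA with 12 PCR cycles and sequenced as single 50-base reads, per the labels' protocols. Per the submitters' processing notes, the tools were HISAT2, SAMtools, featureCounts (Subread 1.5.1) and DESeq2 1.16.1 on GRCm38.p4; how the counter treated strand and multi-mapping reads is not given in the sources used here. Raw read counts per NCBI gene ID were deposited, of which 3 of 37444 entries (at most 0.019% of a library) have no gene number or blank cells and were left out. Counts were filtered with filterByExpr, scaled by TMM and tested with edgeR 4.0.16 (R 4.3.3; quasi-likelihood, robust, 6 groups and batch, 13 contrasts). Scripts were tested on simulated counts. DESeq2 1.42.0, other scalings and filters, single batches, a granulosa covariate, a replicate block and leaving out each library were alternatives, as was a term for title prefixes, added after seeing the data. GENCODE M21 and RefSeq gave sequences. Members, gene lists and tests were chosen with earlier results of these data known. Text names the 12 most abundant members, up to 10 called per direction for stage and for strain, H2ac1, H2bc1, and up to 4 per direction from each other list, besides Slbp, Npat, H3-3a and H3-3b. PCR reads are not independent molecules.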

Additional observations from a re-analysis of the deposited data

Results flagged for a closer look

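In 222 groups of 5 or 6 libraries over 37 summed and single-gene levels, 1 value stood apart from its group by Dixon's criterion. Chance alone flags about 1 in 20 groups where the values of a group come from a single distribution. Each group here mixed both batches, between which the members' summed levels did not overlap. That gap widens the range and can hide a value that stands apart within its batch. The rate of 1 in 20 therefore does not apply, and the lack of other flags says little about values within a batch. H2bc21 was at 3.89 CPM in F1 GV batch 1 replicate 5, and at 0.0530 to 1.14 CPM in the other libraries of that group (n = 6), so that the gap made up 0.716 of the range. This library also had the highest granulosa marker sum of its group, 2212 CPM.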

How the results depend on the processing

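Counts are of members called by edgeR, 57 in all. For MII against GV on the mean of strains the count of 16 became 2 without a batch term, 1 in batch 2 alone and 0 with the granulosa covariate, and ran from 13 to 19 without 1 library. In B6 (3) it was 1 with 1 CPM required in 16 libraries, 1 without a batch term, 1 in batch 1 alone and 0 with the granulosa covariate, and 0 to 7 without 1 library. In F1 (20) it was 1 without a batch term, 0 in batch 2 alone and 0 with the granulosa covariate, and 13 to 30 without 1 library. In D2 (7) it was 1 without a batch term and in each batch alone, 0 with the granulosa covariate, and 1 to 9 without 1 library. For D2 against B6 in GV (15) it was 24 by DESeq2, 0 without a batch term, 4 in batch 1 alone and 9 without the 3 GV libraries of low granulosa level, and 10 to 30 without 1 library. In MII (4) it was 0 without a batch term, 0 in batch 1 alone, 1 in batch 2 alone and 2 with the granulosa covariate, and 1 to 9 without 1 library. The mid-parent and stage-by-strain counts were 0 in every alternative run. Calls over all genes tested also moved in the fits named above. On the mean of strains 9862 became 8327 without a batch term, 4503 in batch 2 alone and 2775 with the granulosa covariate. B6 went from 5065 to 3640 with the 1 CPM filter, 3448 without a batch term, 3946 in batch 1 and 1762 with the covariate. F1 had 6244, then 3566 without a batch term, 812 in batch 2 alone and 1716 with the covariate. D2 went from 5461 to 3010 without a batch term, 3590 in batch 1 alone, 769 in batch 2 alone and 1777 with the covariate. For D2 against B6 in GV, 3891 became 4418 by DESeq2, 2558 without a batch term and 2449 in batch 1 alone. It was 3127 without the 3 GV libraries of low granulosa level. In MII 5019 became 3615 without a batch term, 3439 in batch 1 alone, 2160 in batch 2 alone and 5203 with the covariate. Set reversed, to 0.0155, with the granulosa covariate. Besides the replicate block, other settings moved no count by over 1.5 times. With the title prefixes of batch 2 as separate batch levels, an alternative chosen after seeing the data, the counts were 15 on the mean of strains, 2 in B6, 21 in F1 and 7 in D2, and for D2 against B6 15 in GV and 3 in MII. The cause of these shifts was not tested, except that single batches hold fewer libraries.

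Same-numbered GV and MII libraries gave 11 pairs, whose deviations correlated by -0.131 to 0.096, with 7 of 11 closest to their own number, so no pairing by number was detected. With the replicate block the counts were 0 in B6, 12 in F1, 4 in D2 and 13 on the mean of strains, from 22 libraries.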
